A study of Homo sapiens with 12 samples.

Results

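AHNAK, AHNAK2 and MAP1A are genes whose protein is encoded almost wholly by 1 very long exon. Their intervals were chosen by position: every interval of 6 peak lists that shared at least 1 bp, on the gene's strand, with the hg19 bounds of the gene. AHNAK (ENSG00000124942.14) was taken as chromosome 11 from 62283374 to 62314332 on the minus strand. For AHNAK2 (ENSG00000185567.7), also a minus-strand gene, the bounds were chromosome 14 from 105403581 to 105444694. Those of MAP1A (ENSG00000166963.13) were chromosome 15 from 43809806 to 43823818 on the plus strand. This gave 25 intervals of 53502, namely 17 in AHNAK, 2 in AHNAK2 and 6 in MAP1A. The genes were picked because the widest interval of each list lay in 1 of them, so width and presence are descriptions here and no test was made of them.

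The study applied MeRIP-seq, in which RNA fragments carrying N6-methyladenosine (m6A) are captured by an antibody and read alongside an input of the same RNA. H460, the cells used, are an established line from a human large cell lung cancer, wild type per the labels. The labels describe 12 libraries in 4 groups of 3: IP and input of cells given 100 nM rapamycin for 24 h, and IP and input of cells without treatment. The labels do not say whether replicates came from separate cultures.

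The 6 peak lists are called A to F. The record ties all of them to untreated samples, A, C and E to input and B, D and F to IP. However, D, E and F were deposited under names with the word rapamycin, and A, B and C under names with con. For this reason no list was assigned to a treatment, no list was treated as an input or an IP, and rapamycin was not compared with untreated cells. The lists differed in length, A having 12040 intervals, B 14908, C 12288, D 4837, E 4530 and F 4899. The depth behind them is unknown. Each value below is 1 value per list, without replicates.

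m6A is laid down on mRNA mainly by the METTL3 and METTL14 methyltransferase and removed by demethylases such as FTO. It is known to be frequent around stop codons and in unusually long exons. AHNAK is a giant scaffold protein found at the plasma membrane, where it binds the S100A10 and annexin 2 complex. AHNAK2 is its close relative. MAP1A is a microtubule-binding protein, best known in neurons, that is made as a precursor and cut into a heavy and a light chain. The intervals of the 3 genes could not be shown as bases, since no genome of the build of the files was used here, and exon positions in that build were not used either.

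The intervals fell into 6 regions once overlapping intervals of the lists were joined, 4 of them in AHNAK and 1 in each of the other genes. MAP1A was held by all 6 lists in identical form. AHNAK was present in every list at its 5′ end, but its long 3′ stretch was present in A, B and C only. AHNAK2 was present in D and F only. Of the 6 regions, 2 were held by all lists, against 8.30% of the 20742 joined regions of the series. Since the genes were picked for wide intervals, and wide regions are held by all lists more often (29.8% of the 738 joined regions of 3000 bp or more), nothing is read from this share. No interval lay on the opposite strand within the bounds of any of the 3 genes.

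**Figure D1:**
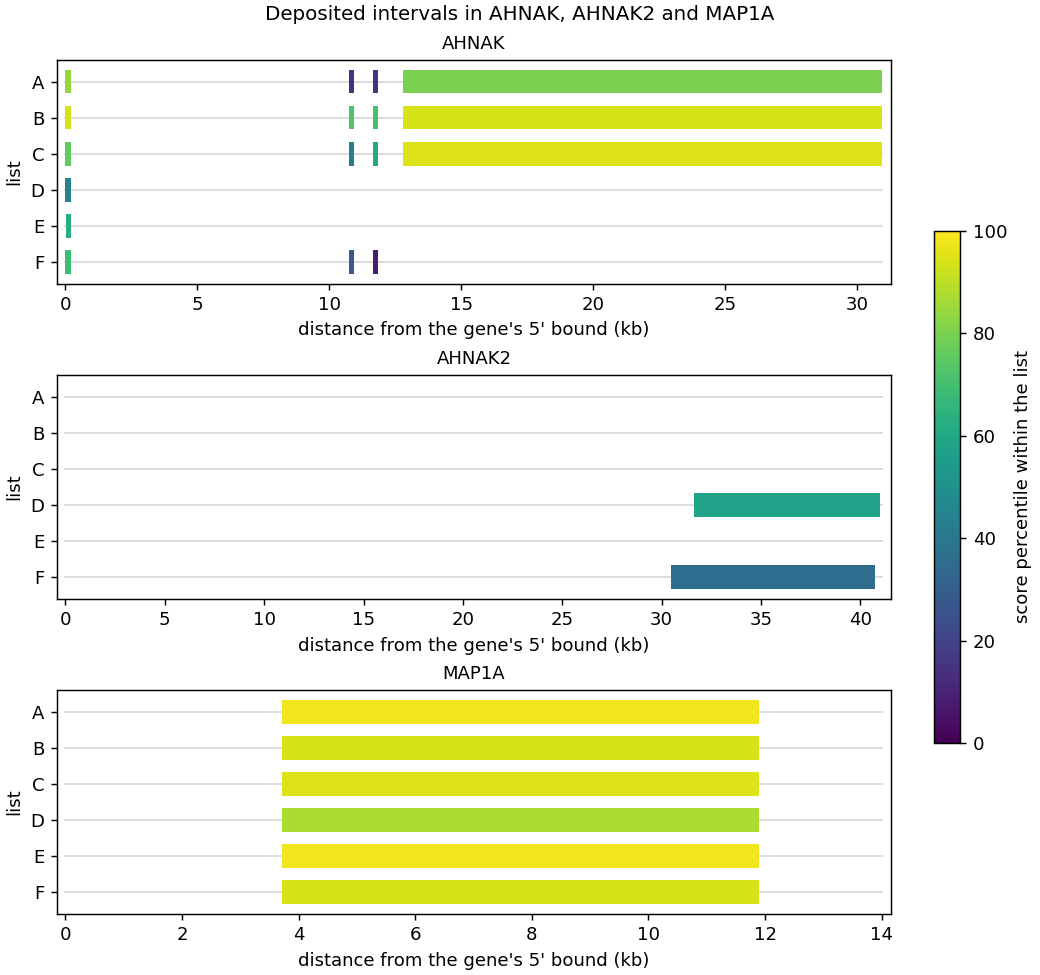
Position of every deposited interval in AHNAK, AHNAK2 and MAP1A, with the lists A to F down the page and the distance from the gene's 5′ bound in kb across it. Bars are coloured by the percentile of the interval's score within its list; the wide AHNAK bar is drawn for A, B and C, the AHNAK2 bar for D and F, and the MAP1A bar for all 6 lists.

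AHNAK was covered mainly by 1 interval from 62283374 to 62301546. This interval was 18173 bp wide, started exactly at the gene's 3′ bound and took up 58.7% of the gene's span. It had the same ends in A, B and C and was the widest interval of each of these lists. The authors' score, whose scale is not given, was 801.72 in A and 3100 in both B and C. D, E and F held no interval anywhere in this stretch. The next widest interval measured 12624 bp in A, 12719 bp in B and 12439 bp in C, and none of these lay in the other 2 genes.

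The 3 other AHNAK regions were short and lay on the 5′ side of the wide one. The first covered 62302475 to 62302662 (188 bp), beyond a gap of 928 bp. Its score was 95.87 in A, 951.73 in B, 561 in C and 78.58 in F. The second covered 62303417 to 62303579 (163 bp), a further 754 bp on. It scored 97.08 in A, 1049.1 in B, 256.82 in C and 109.09 in F. Both short regions were absent from D and E, and B had the highest score value at each and A and F the lowest, which does not rank peak strength between lists. The lowest score of each list lay between 70 and 70.08, and the values in A and F were nearest to it. Whether D and E had calls here with lower scores is unknown. Of all joined regions, 2.24% were held by A, B, C and F alone.

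The region at the 5′ end of AHNAK was the one held by every list. It ran from 62314132 to 62314332, the gene's 5′ bound, and was 201 bp wide in A, B, C, D and F. In E it stopped at 62314307 and was 176 bp wide, 25 bp short of the bound. It scored 981.19 (A), 3100 (B), 1159.12 (C), 164.23 (D), 256.78 (E) and 277.35 (F). D, E and F thus had the 3 lowest values, a difference that cannot be read as one of peak strength because the score may rise with depth. The gap between this region and the nearest short one was 10552 bp, with no interval in any list.

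Scores ranked within a list put the AHNAK intervals at different heights. A score percentile is the percentage of a list's intervals with a lower score, with equal scores counted at a weight of 0.5. The wide interval stood at the 79.8 percentile of A, 93.9 of B and 94.8 of C. Wide intervals scored high as a class, and those of 3000 bp or more had a median percentile of 79.8 in A, 87.5 in B and 83.9 in C. In B and C, 48.7% and 37.8% of such intervals scored 3100 or more. In A, 231 of 464 scored above the wide AHNAK interval. Many intervals share the score of 3100 (the lists A to F had 3.74%, 11.8%, 10.0%, 1.47%, 1.57% and 1.10% of their intervals at or above it), so B and C cannot rank it more finely. The 5′ end stood at 83.7 (A), 93.9 (B), 75.7 (C), 43.8 (D), 62.7 (E) and 68.7 (F). In A the 201 bp at the 5′ end therefore scored above the 18173 bp of the wide interval, whereas in C the order was the reverse and in B both stood at 3100. The short regions between them ran from 7.87 to 70.4 for the 188 bp one and from 14.6 to 72.1 for the 163 bp one. Of the 17 AHNAK intervals, 11 scored above the median of their list.

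**Figure D2:**
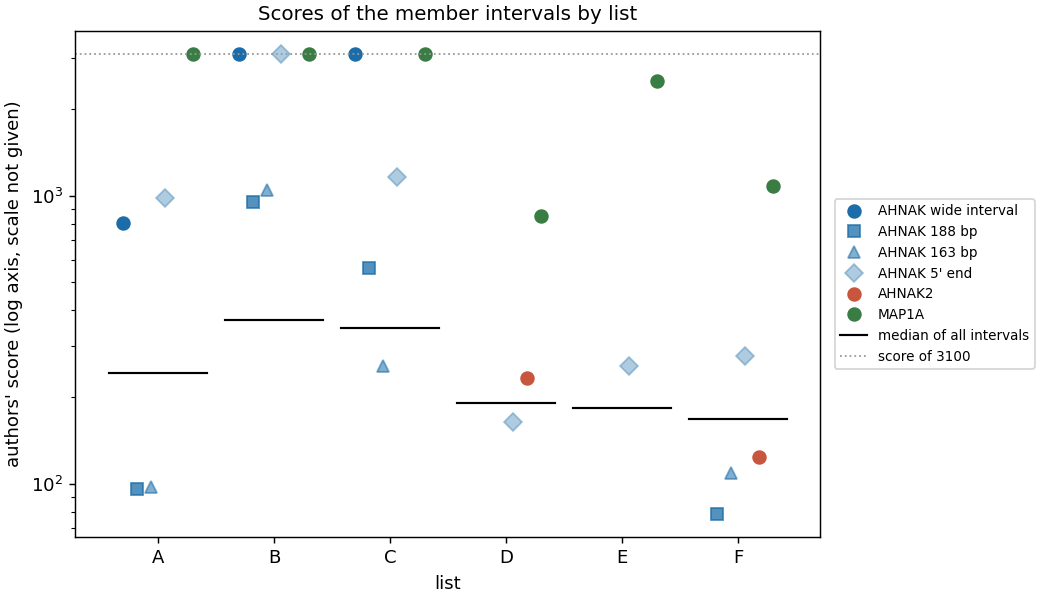
The authors' score of each AHNAK, AHNAK2 and MAP1A interval (log axis) for the lists A to F, with the median score of all intervals of the list as a black line and 3100 as a dotted line. MAP1A lies above the median in 6 of 6 lists, AHNAK2 above it in D and below it in F, and the AHNAK 5′ end below it in D only.

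Absence of the wide AHNAK interval from D, E and F went with other properties of these lists. They hold fewer intervals than A, B and C, although the running numbers of their interval names, given below, reach higher. Of all joined regions, 12.3% were held by A, B and C and by no other list. Among joined regions of 3000 bp or more this share was 13.3%, or 98 regions, and among the 13 joined regions of 8000 bp or more it was 3 regions. AHNAK had the widest of the 2554 regions with this combination of lists, whose median width was 578 bp. The gene was picked for the widest interval of A, B and C, so this rank is no finding. All 3 lists gave the AHNAK region the same ends, as in 59.7% of the 2554 regions and in 10.2% of the 98 that were 3000 bp or more wide. With each list cut to its 4530 best-scored intervals, the length of the shortest list, A, B and C held the wide interval at its full 18173 bp. Its scores fixed this, since 2426 intervals of A, 71 of B and 58 of C scored higher. Ties at 3100 added 1680 others in B and 1173 in C. This cut removes the weakest intervals of the longer lists and cannot add intervals to D, E or F, and the part of depth in the absence was not tested.

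Regions with high scores in both B and C were seldom missing from all of D, E and F. Of 988 joined regions that scored 3100 or more in both B and C, 32 (3.24%) were held by none of D, E and F, and 627 (63.5%) were held by all 6 lists. Among the 214 of these that were 3000 bp or more wide, 9 (4.21%) were held by none of D, E and F, and the wide AHNAK region is 1 of the 9. AHNAK was singled out with its values known, and the condition leaves out A, where its wide interval scored 801.72. These shares are therefore given as background alone.

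The running numbers in the interval names were examined for calls of AHNAK in D, E and F. The numbers rise along a chromosome, and numbers missing from a list are taken here as calls that it does not hold. Between the nearest deposited interval below AHNAK and the first one inside it, 54 numbers were missing in D over 401 kb, 82 in E over 401 kb and 63 in F over 389 kb. In A, B and C, 5, 14 and 4 numbers were missing over 367, 367 and 363 kb. These windows differ, since those of A, B and C stop at the gene's 3′ bound and those of D, E and F also span the long stretch. Of the windows of D, E and F, 370138 bp lay below the gene. More numbers were missing from D, E and F throughout the genome, with 98.9%, 99.3% and 98.9% of all numbers up to the highest, against 89.3%, 89.9% and 86% in A, B and C, so the contrast is not particular to AHNAK. The highest number was 432460 in D, 644965 in E and 429506 in F, against 112236 in A, 147164 in B and 87583 in C. D, E and F are thus the shorter lists with the higher numbering, and why was not tested. The positions of missing calls are unknown. A call inside the long AHNAK stretch that was left out of D, E or F and no call there at all cannot be told apart.

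AHNAK2 was covered by 1 wide interval in each of 2 lists. In D it ran from 105403680 to 105413077, a width of 9398 bp, with a score of 232.12. In F it ran from 105403938 to 105414199, a width of 10262 bp, with a score of 123.98. It was the widest interval in both D and F, followed there by intervals of 9206 bp and 8346 bp. A, B, C and E held no AHNAK2 interval, although B is the longest list. Both intervals lay at the 3′ side of the gene, 99 bp (D) and 357 bp (F) inside its 3′ bound, and took up 22.9% and 25% of its span. The 5′ end of AHNAK2 was held by no list, unlike that of AHNAK.

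The AHNAK2 scores were modest among intervals of 3000 bp or more. In D the score stood at the 57.8 percentile of the list, and 166 of the 265 intervals of 3000 bp or more in D scored higher. In F it stood at the 35.2 percentile, below the list's median, and 194 of 240 such intervals scored higher. Of all joined regions, 43 (0.207%) were held by D and F alone. Their median width was 400 bp and the widest apart from AHNAK2 measured 2520 bp. AHNAK2, which measured 10520 bp when joined, was the only one of them of 3000 bp or more. It was picked for the widest interval of D and of F, so being the widest of the 43 is no finding. Of the 299 joined regions of 3000 bp or more held by both D and F, 5 (1.67%) were held by none of A, B and C. Between the nearest listed intervals on either side of AHNAK2, 24 numbers were missing in D and 38 in F, which hold the gene, against 15 in A, 16 in B, 7 in C and 41 in E, which do not. These windows ran from 98.3 kb in C to 123 kb in E and F, and D, E and F lacked more numbers throughout the genome. The counts therefore cannot tell whether AHNAK2 was called in a list that does not hold it.

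The ends of the AHNAK2 intervals matched no other list. The starts in D and F lay 258 bp apart and the ends 1122 bp apart, with 9140 bp in common. Among all overlapping pairs of intervals of D and F, 3.44% had neither end equal, and among the 170 such pairs in which both intervals were 3000 bp or more wide, 14 (8.24%) had neither. By contrast, 16 of the 17 AHNAK intervals and 6 of the 6 MAP1A intervals had both ends equal to those of an interval in another list. The exception in AHNAK was the shortened 5′ end in E. Over all lists, 56.3% of intervals, and 41.7% of those of 3000 bp or more, had both ends equal in at least 1 other list. The 56.3% includes intervals of the 36.9% of joined regions held by 1 list, which can match no other list. The AHNAK and MAP1A counts repeat the same few regions over the lists, each region in at least 3 lists, so the shares are not alike.

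MAP1A was represented by the same interval in 6 of 6 lists, from 43813522 to 43821706. It was 8185 bp wide, began 3716 bp inside the gene's 5′ bound and ended 2112 bp before its 3′ bound, covering 58.4% of the span. It was the widest interval of E, where the next one measured 8176 bp. Its width rank was 3 in D and F, 4 in B, 6 in A and 9 in C. It scored 3100 in each of A, B and C, while D gave 850.38, E 2503.63 and F 1080.48. Unlike AHNAK and AHNAK2, MAP1A was thus present at full width in short and long lists alike.

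The MAP1A score was high in each list when set against all intervals of the list. Its percentile was 98 (A), 93.9 (B), 94.8 (C), 87.8 (D), 97.7 (E) and 93.8 (F), and the values for A, B and C are set by ties at 3100. Among the intervals of 3000 bp or more of the same list, 8 of 191 scored higher in E, 33 of 240 in F and 61 of 265 in D. In A, B and C, 4 of 464, 8 of 439 and 8 of 529 scored higher, but 67, 205 and 191 others tied with MAP1A at 3100. A score of 3100 was thus common among wide intervals of B and C. Of the 220 joined regions of 3000 bp or more held by all lists, 39 (17.7%) had both ends equal in all 6. MAP1A was the widest of the 39, followed by one of 7249 bp. That rank was fixed by the choice of genes, since none of the 39 can be wider than the widest interval of E, which is MAP1A. Among the 1722 joined regions of any width held by all lists its width rank was 3, and the widest measured 9239 bp. Of these 1722, 57.0% had equal ends throughout.

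**Figure D3:**
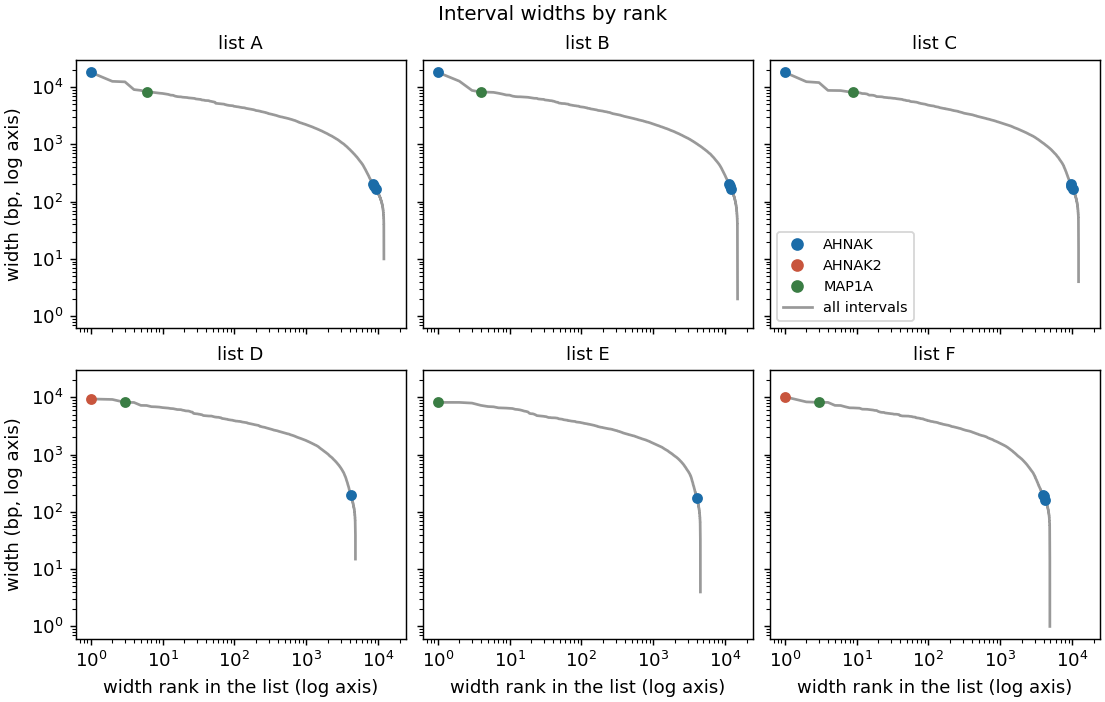
Width of every interval against its width rank, both on log axes, with 1 panel for each of the lists A to F and the AHNAK, AHNAK2 and MAP1A intervals as coloured points. Rank 1 is AHNAK in A, B and C, AHNAK2 in D and F and MAP1A in E, while the short AHNAK intervals of 163 to 201 bp lie in the lower right of each panel in which they occur.

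AHNAK held very wide and narrow intervals. Its wide interval ranked first in 3 lists, while its other 14 intervals were 163 to 201 bp wide and narrower than 70.6% to 89.1% of the intervals of their list. Together the 3 genes took 26910 bp in each of A, B and C, against 17784 bp (D), 8361 bp (E) and 18999 bp (F). This was 0.273% (A), 0.221% (B), 0.231% (C), 0.33% (D), 0.173% (E) and 0.398% (F) of the bp covered by the list, from 2 to 5 intervals. F had the highest share and E the lowest.

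Overlap between lists within each gene differed from that over whole lists. The Jaccard index, the bp shared by a pair of lists over the bp in either, was 1 in MAP1A for all 15 pairs. In AHNAK it was 1 for the pairs among A, B and C, and 0.0107, 0.0094 and 0.0295 when any of these was set against D, E and F, in that order. D and E had an AHNAK index of 0.876, D and F one of 0.364, and E and F one of 0.319, which rests on the short regions alone. In AHNAK2 it was 0.869 for D and F and 0 for every other pair in which a list held the gene. Over whole lists the index ran from 0.306 to 0.661. Since 1 wide interval dominates each gene, the index within a gene mostly states whether both lists hold that interval.

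**Figure D4:**
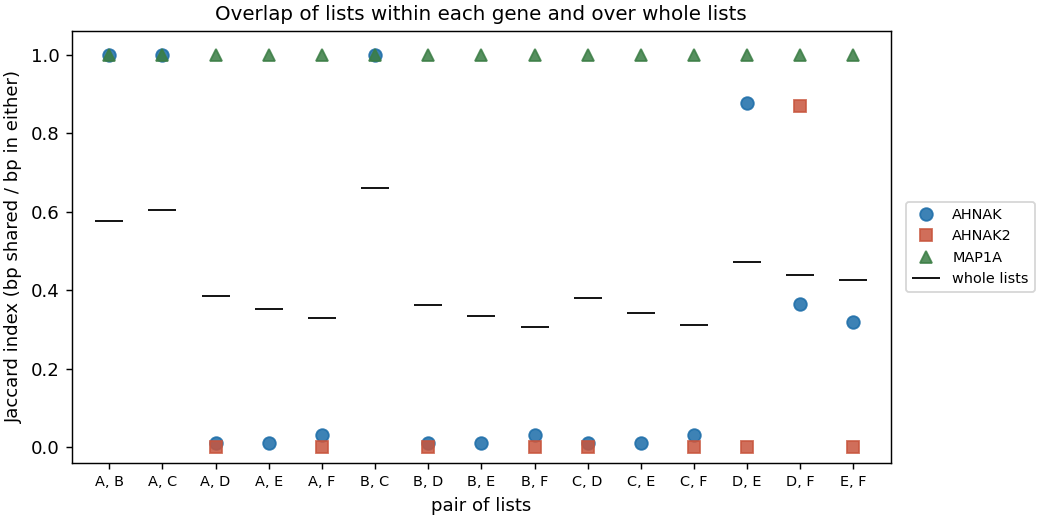
Jaccard index of each of the 15 pairs of lists (bp shared over bp in either), within AHNAK, AHNAK2 and MAP1A and over whole lists (black dashes). MAP1A is at 1 throughout, AHNAK is at 1 among A, B and C and below 0.03 between these and D, E or F, and AHNAK2 has no value for pairs in which neither list holds it.

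Taken by base, the genes differed in how much of their covered sequence recurred. In AHNAK 18725 bp were covered by any list, 60.5% of the span, and 176 bp (0.94% of these) by all 6 lists. In AHNAK2 10520 bp were covered by any list, 25.6% of the span, and none by all lists. In MAP1A the 8185 bp were covered by all lists.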

How the data were processed

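The data were 6 peak lists of a MeRIP-seq series with 6 columns and no header. Per the submitters' processing notes, HISAT2 2.0.4 was among the tools and hg19 was the build. The interval names look like those the MACS caller writes by default; the caller's settings and the libraries behind a list are not stated in the labels or files. The authors' deposited score is 1 value per interval on a scale not given here, and it was used to rank intervals within a list and, as a common cut, to set a minimum or mark scores of 3100; score values given side by side do not compare peak strength. Libraries were grouped by the labels, but the lists were not assigned to arms. The members were chosen with earlier results of these data known; all intervals of the 3 genes within fixed hg19 bounds are named. Regions are intervals of all lists joined where they share at least 1 bp on a strand. Positions are hg19 and 1-based. No test was run. Alternatives were a minimum score, equal list length, other overlap rules and each list left out. Python 3.11.15 was used with scipy 1.17.1, numpy 2.4.6, pandas 2.3.3 and, for plots, matplotlib 3.10.9. The overlap code recovered 9 of 9 known values on simulated lists of 2000 intervals, one of them from bedtools 2.31.1. Depth is unknown, so no counting interval is given. Exons and sequences were not analysed here.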

Additional observations from a re-analysis of the deposited data

How the results depend on the processing

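Of 306 values recomputed under an alternative, 269 stayed within their limit (the 95% binomial interval for percentages, 1.5 times for the rest). For score percentiles, which are ranks, the width of that interval was set by the number of intervals in the list. It is a working limit and no measure of uncertainty. Ignoring strand, asking for 50% of the interval inside the gene, reciprocal overlap of 50%, joining within 100 bp and a 10 bp tolerance on ends moved none. The first 2 of these, with 64 values each, could move nothing. No interval lay on the opposite strand, and every interval lay wholly inside its gene. Joining could not either, since the AHNAK regions lay at least 754 bp apart. Nor could a cut add AHNAK2 intervals to A, B, C or E. The count of 269 is therefore no measure of stability. With scores of at least 260.435, the median over all lists, AHNAK2 was left with 0 intervals and 0 bp in D and F, and AHNAK with 0 in D and E, so widths and percentiles have no value there. The cut lies above the median score of A (242), D (191), E (183) and F (168) and below that of B (371) and C (347). It thus removed more than 50% of A, D, E and F by construction. AHNAK in E missed the cut narrowly, with a score of 256.78. AHNAK kept 2 intervals in A and 1 of 201 bp in F, its median Jaccard index became 0, against 0.02948 as deposited, and its bp in every list became 0, against 176. The wide AHNAK interval in A, B and C and the MAP1A interval in all lists were kept under this minimum. With each list cut to its 4530 best-scored intervals, the wide AHNAK interval was kept in A, B and C, which its scores fixed beforehand. AHNAK then had 2 intervals in A and 2 in C, and its median Jaccard index was 0.01094. Without each list in turn, that index ran from 0.01073 (without F) to 0.02948. Score percentiles move by construction when low scores are removed. At the minimum score the median percentile of AHNAK was 61.61 in A, 71.15 in B, 57.74 in C and 6.177 in F, and that of MAP1A was 95.76, 89.64, 90.88, 68.31, 93.81 and 81.38 in A to F. At equal length AHNAK had 51.54, 43.98, 59.9, 39.97 and 22.38 in A, B, C, D and F, AHNAK2 had 54.91 in D and 29.97 in F, and MAP1A had 94.65, 79.88 and 85.76 in A, B and C. No paired analysis was possible because no list was assigned to an arm and no test was run. Depth is unknown, so a gene missing from a list may have been undetected.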
